A study of Arabidopsis thaliana with 15 samples.

Results

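Glucosinolates are sulphur-rich defence compounds of Arabidopsis and its relatives, and the 40 genes described here make them, move them or break them down. They were picked by locus for their known role in the pathway, at a time when earlier results of these data were known. All 40 were found among the 33201 genes listed in the authors' comparison of RNA from 14-day-old seedlings of syd-5 (3 libraries) and of wild type Col-0 (WT, 3 libraries). syd-5 is a mutant allele, in the Col-0 background, of SPLAYED (SYD), the ATPase of a SWI/SNF chromatin remodelling complex, and it was the only mutant line used for RNA. Whole seedlings raised on plates in long days were harvested. The series also holds 9 chromatin immunoprecipitation and input libraries, among them 3 from a line with GFP-tagged SYD in the syd-5 background, which were not analysed here.

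In outline, aliphatic glucosinolates start from methionine, whose side chain is lengthened in rounds before cytochromes P450, glutathione transferases, a C-S lyase, glucosyltransferases and sulphotransferases build the shared core. Indolic glucosinolates start from tryptophan and use related enzymes of their own. Separate MYB transcription factors control each branch, GTR transporters load the products, and myrosinases cut off the glucose when tissue is damaged, after which modifier proteins decide between isothiocyanates and nitriles.

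The authors' deposited table gives 1 value per gene and genotype, read here as FPKM (a fragment count scaled to gene length and library size), with a p-value and a q-value, the p-value adjusted for the number of genes tested. No library's value, depth or spread is given, so no error can be set beside a value, and whether the libraries of a genotype came from separate plants is not labelled. Any spread behind the q-values may therefore be technical. A gene is said to have risen or fallen in syd-5 only where q in the authors' deposited table was at most 0.05. The table lists SYD itself at 2.53 FPKM in syd-5 and 13.1 FPKM in WT, with a span that overlaps another listed gene. The photosynthesis genes LHCA3, LHCA4, LHCB3 and RCA, markers of green tissue, summed to 6632 FPKM in syd-5 and 3860 FPKM in WT. Of these 4, 3 rose, where 14.1% of all tested genes rose. The spans listed for LHCB3 and LHCA4 overlap another listed gene each. Of 8 tested root markers 2 rose (25.0%) and none fell, against 14.1% and 18.0% of all tested genes. All 12 root markers summed to 30.4 FPKM in syd-5 and 26.4 FPKM in WT, and none was listed at 0. SHR (8.79 FPKM in syd-5 and 6.49 FPKM in WT) and SCR (9.59 and 11.2 FPKM) were the most abundant of them. Several others were below 1 FPKM in both genotypes, so that the sum mainly follows a few genes.

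Of the 39 members that the authors tested, 30 had a lower value in syd-5 and 9 a higher one. Of these 39, 17 fell (43.6%), 3 rose (7.69%) and 19 were not called. Among all 19868 tested genes 18.0% fell and 14.1% rose, 32.1% in all. Most members are abundant. Of the 36 members that averaged 10 FPKM or more over both genotypes 47.2% fell and 8.33% rose, against 15.7% and 17.2% of all 11353 tested genes at that level. A fall of at least 2-fold was called for 8 members (20.5% of those tested), against 8.27% of all tested genes, and no member rose that much, against 3.29%. The median log2 fold change, syd-5 over WT, was -0.32 over the 39 members and -0.02 over all tested genes. Summed over the 40 members, the level was 5381 FPKM in syd-5 and 7904 FPKM in WT, which is 0.568% and 0.913% of each genotype's total. The myrosinase genes TGG1 and TGG2 held 983 FPKM of it in syd-5 and 2516 FPKM in WT. The ratio of summed levels, syd-5 over WT, was 0.80 for aliphatic, 0.88 for indolic and 0.50 for breakdown genes. The indolic sum mainly follows GSTF9 and GSTF10, which were not called. They held 1535 of 1861 FPKM in syd-5 and 1729 of 2125 FPKM in WT. The breakdown sum, 1842 FPKM in syd-5 and 3678 FPKM in WT, likewise depends largely on TGG1 and TGG2.

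**Figure D1:**
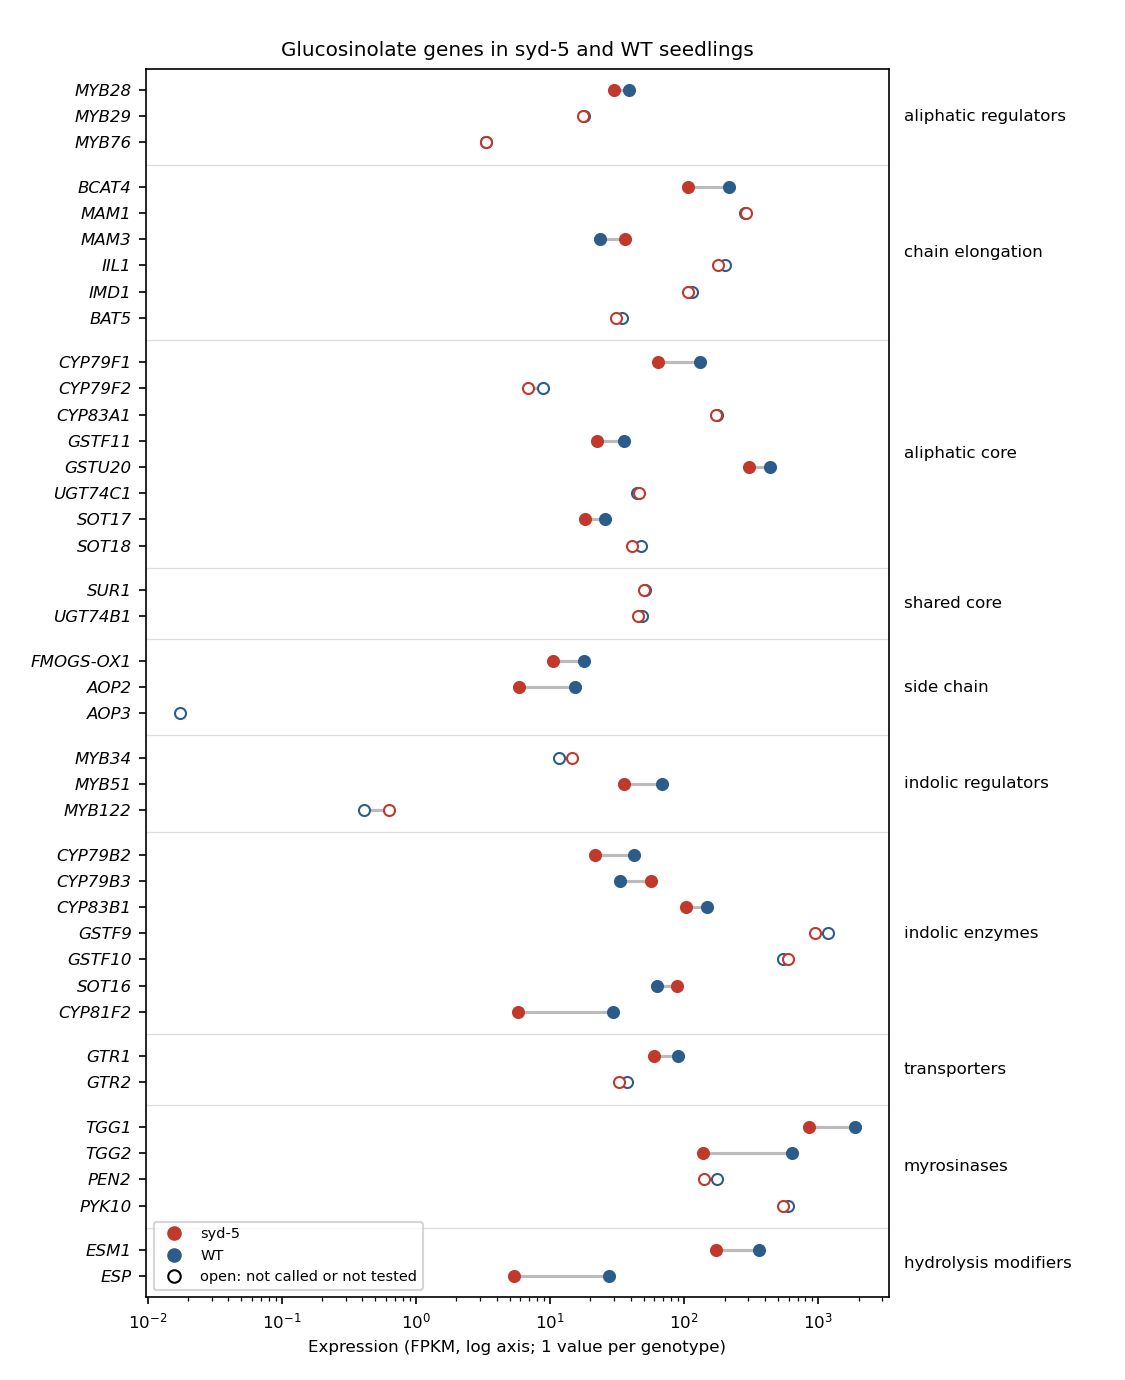
Level of each of the 40 genes (rows, grouped by role) in syd-5 (red) and WT (blue) seedlings, in FPKM on a log axis, with 1 value per genotype and no error available. Filled points are genes that rose or fell, and AOP3, listed at 0 in syd-5, has a WT point only. The widest gaps are those of CYP81F2, ESP and TGG2.

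Genes that break glucosinolates down had a median log2 change of -1.11, against -0.20 for the aliphatic and -0.10 for the indolic genes. All 6 had lower values in syd-5 and 4 of them fell (66.7%), where 18.0% of all tested genes fell. The summed level of the 6 was 1842 FPKM in syd-5 and 3678 FPKM in WT. TGG1 (AT5G26000, TAIR10 chromosome 5, 9079505 to 9082384) encodes the main myrosinase of leaves, found in guard cells and in myrosin cells along the veins. It stood at 846 FPKM in syd-5 and 1875 FPKM in WT (log2 -1.15), which was the 119th highest level of all listed genes in syd-5 and the 26th highest in WT. TGG2 (AT5G25980, chromosome 5, 9072727 to 9075690), the second leaf myrosinase gene, fell to 138 FPKM in syd-5 against 641 FPKM in WT (4.66-fold, log2 -2.22). The pair lies 3814 bases apart with 1 listed entry in between. TGG1 was 6.15 times as abundant as TGG2 in syd-5 and 2.93 times in WT. TGG1 and TGG2 are close copies whose reads can be split wrongly, but their sum was also lower, at 983 FPKM in syd-5 and 2516 FPKM in WT.

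The genes of the atypical myrosinases PEN2 and PYK10 were not called. PEN2 (AT2G44490), which acts on indolic glucosinolates in defence against fungi, had 139.5 FPKM in syd-5 and 174 FPKM in WT (q = 0.0887 by the authors' deposited table, log2 -0.32). PYK10 (AT3G09260), the main beta-glucosidase of endoplasmic reticulum bodies, had 541 FPKM in syd-5 and 598 FPKM in WT (q = 0.575 by the authors' deposited table). Its listed span also covers AT3G09250, at 25.8 FPKM in syd-5 and 23.6 FPKM in WT. The ER body genes NAI1, a regulator of PYK10, and NAI2, needed to form these bodies, both rose, to 21.5 and 58.1 FPKM in syd-5 against 8.80 and 38.3 FPKM in WT. These 2 were the whole list of ER body markers. The beta-glucosidase genes on the list of other pathway genes did not rise. BGLU22 fell, to 7.16 FPKM in syd-5 against 15.8 FPKM in WT, and BGLU21 (16.5 and 18.6 FPKM) was not called.

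Both modifiers of hydrolysis fell. ESM1 (AT3G14210, chromosome 3, 4729823 to 4731803), which favours isothiocyanates, had 172 FPKM in syd-5 and 362 FPKM in WT (2.10-fold, log2 -1.07). ESP (AT1G54040, chromosome 1, 20169920 to 20173949), the epithiospecifier protein that directs hydrolysis towards nitriles and epithionitriles, fell 5.09-fold to 5.39 FPKM in syd-5 against 27.4 FPKM in WT (log2 -2.35). These proteins have opposite effects on the product, and Col-0 is known as an accession that forms mainly isothiocyanates. Their transcripts were both lower in the mutant.

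Markers of guard cells and of the stomatal lineage were also read. All 6 of them fell, where 18.0% of all tested genes fell. Their summed level was 33.9 FPKM in syd-5 and 74.5 FPKM in WT, and none was listed at 0. The list includes markers of precursors, such as EPF1, and so is not limited to the cells that hold TGG1. FAMA, which specifies both guard cells and myrosin cells, had 19.3 FPKM in syd-5 and 35.6 FPKM in WT (log2 -0.88). MYB60, a guard cell regulator, had 7.81 FPKM in syd-5 and 16.3 FPKM in WT, and EPF1, a signal of stomatal precursors, 1.63 FPKM and 9.15 FPKM. In RNA from whole seedlings, fewer cells of a type and less RNA per cell cannot be told apart. The part of these cells in the lower myrosinase levels was not tested.

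**Figure D2:**
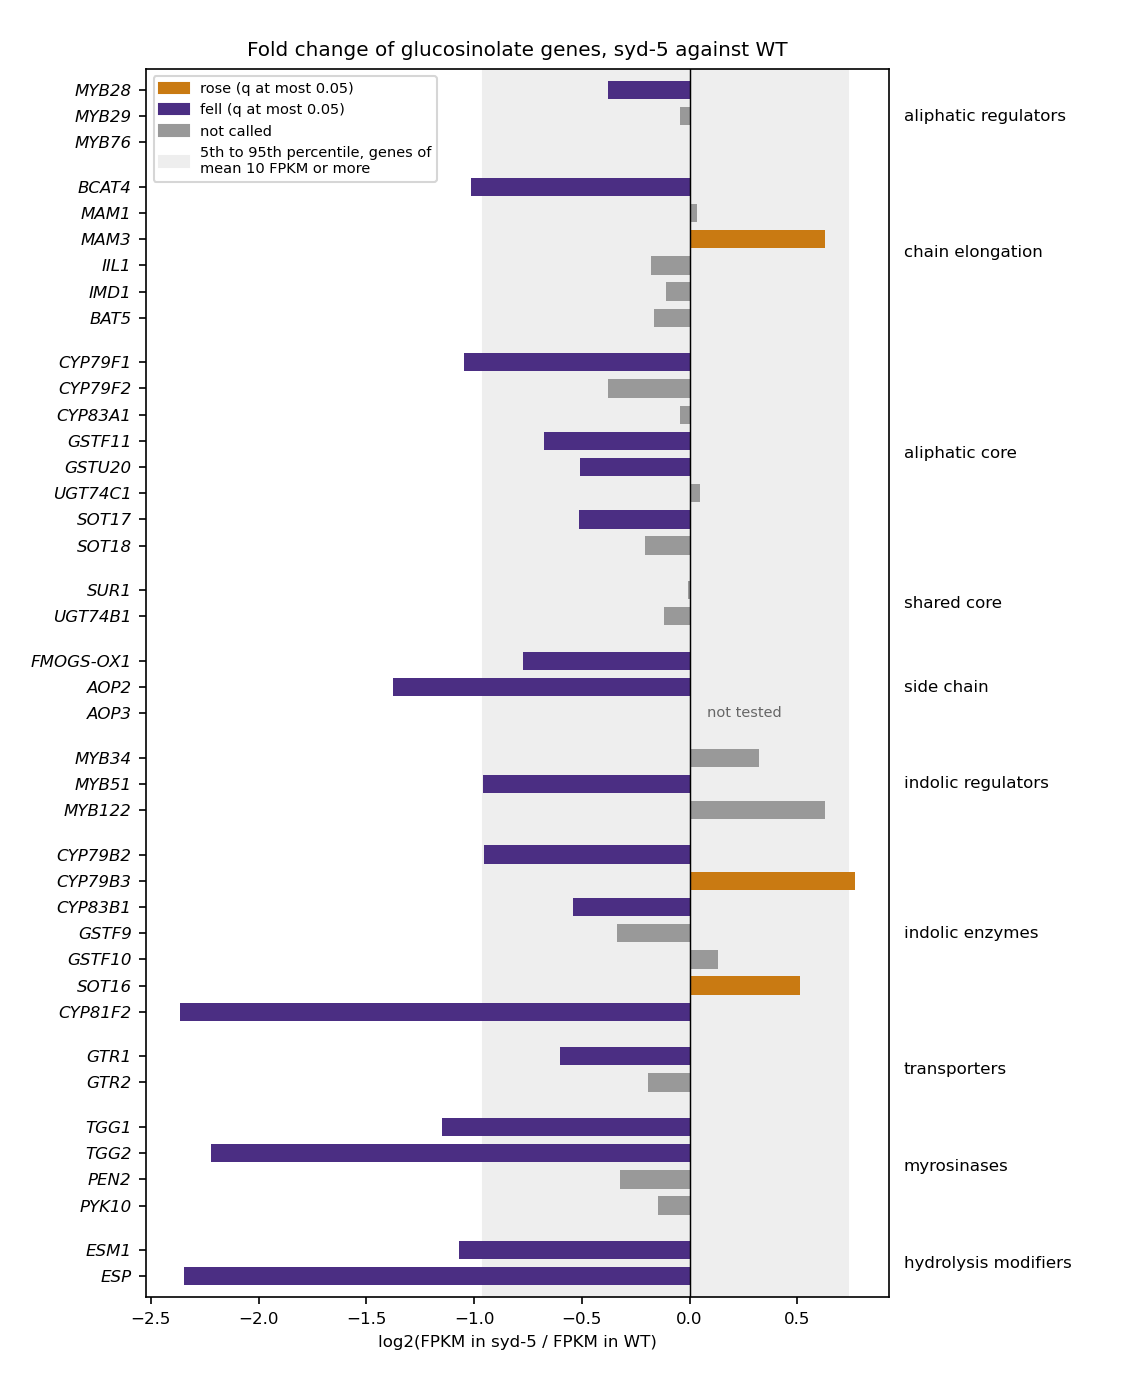
Log2 of the FPKM ratio, syd-5 over WT, for each gene by role, with bars in purple for genes that fell, orange for genes that rose and grey for genes not called. The shaded band spans the 5th to 95th percentile of the 11353 tested genes that averaged 10 FPKM or more (log2 -0.96 to 0.74), and 8 members lie below it and 1, CYP79B3, above it.

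Of the 3 regulators of the aliphatic branch 1 fell, where 18.0% of all tested genes fell. MYB28 (AT5G61420), the main activator of methionine-derived glucosinolates, fell 1.30-fold, to 30.1 FPKM in syd-5 against 39.1 FPKM in WT (q = 0.0316 by the authors' deposited table, log2 -0.38). That was the smallest called change of any member, and adjusting the p-values over all listed genes, untested ones included, ended the call (q = 0.0527 recomputed from the authors' deposited table). MYB29 (17.5 FPKM in syd-5 and 18.0 FPKM in WT) and MYB76 (3.34 and 3.33 FPKM), its close relatives with overlapping roles, were not called. These 2 genes lie next to each other on chromosome 5.

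Of the 6 chain elongation genes 1 fell and 1 rose (16.7% each), close to the 18.0% and 14.1% of all tested genes. BCAT4 (AT3G19710), the aminotransferase that takes methionine into the cycle, fell 2.02-fold to 106 FPKM in syd-5 against 215 FPKM in WT (log2 -1.02). The span listed for BCAT4, chromosome 3, 6843662 to 6849497, also covers AT3G19700, which was at 0.0209 FPKM in syd-5, lower still in WT, and not tested. MAM3 (AT5G23020, chromosome 5, 7718121 to 7721839), the condensing enzyme that also makes the longest chains, rose 1.55-fold to 36.3 FPKM in syd-5 against 23.4 FPKM in WT (log2 0.63). Its neighbour and close copy MAM1, which makes the short chains, was at 289 FPKM in syd-5 and 283 FPKM in WT and was not called. MAM3 thus made up 11.2% of the summed MAM level in syd-5 and 7.66% in WT. The isomerase subunit gene IIL1 (178 FPKM in syd-5 and 202 FPKM in WT), the dehydrogenase gene IMD1 (107 and 115 FPKM) and the plastid transporter gene BAT5 (30.9 and 34.6 FPKM) had lower values in syd-5 and were not called. The spans of IMD1 and, in the core pathway, UGT74C1 also cover another listed gene each. The one at UGT74C1, AT2G31800, had 102 FPKM in syd-5 and 80.7 FPKM in WT, and neither was called.

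Among the 8 core enzyme genes of the aliphatic branch, 4 fell (50.0%, against 18.0% of all tested genes) and none rose. CYP79F1 (AT1G16410, chromosome 1, 5608807 to 5611426), which converts chain-elongated methionine to aldoximes, fell 2.07-fold, to 63.6 FPKM in syd-5 against 131 FPKM in WT (log2 -1.05). Its tandem copy CYP79F2, which accepts long chains, had 6.82 FPKM in syd-5 and 8.87 FPKM in WT and was not called (q = 0.0670 by the authors' deposited table, log2 -0.38). The glutathione transferase genes GSTF11 (22.3 FPKM in syd-5 and 35.7 FPKM in WT) and GSTU20 (306 and 436 FPKM) fell, as did the sulphotransferase gene SOT17 (18.1 and 25.9 FPKM). CYP83A1, the next P450 of the branch, had 172 FPKM in syd-5 and 177 FPKM in WT, and neither it nor UGT74C1 (46.2 and 44.7 FPKM) nor SOT18 (41.1 and 47.4 FPKM) was called.

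The core genes that serve both branches did not pass the threshold. SUR1, the C-S lyase, was at 50.6 FPKM in syd-5 and 50.9 FPKM in WT, and the glucosyltransferase gene UGT74B1 at 45.0 FPKM and 48.8 FPKM.

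Both tested side chain genes fell. FMOGS-OX1 (AT1G65860), which oxidises the sulphur of the side chain, fell 1.71-fold to 10.5 FPKM in syd-5 against 17.9 FPKM in WT. AOP2 (AT4G03060, chromosome 4, 1351980 to 1353854), which makes alkenyl side chains in other accessions and is known to be non-functional in Col-0, fell 2.60-fold to 5.87 FPKM in syd-5 against 15.2 FPKM in WT (log2 -1.38). Its tandem neighbour AOP3 was listed at 0 in syd-5 and at 0.0175 FPKM in WT and was not tested.

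Of the 3 regulators of the indolic branch 1 fell, where 18.0% of all tested genes fell. MYB51 (AT1G18570, chromosome 1, 6389411 to 6391267), the main activator in shoots, fell 1.94-fold to 35.4 FPKM in syd-5 against 68.6 FPKM in WT (log2 -0.96). MYB34, the activator best known from roots, had 14.5 FPKM in syd-5 and 11.6 FPKM in WT and was not called (q = 0.133 by the authors' deposited table, log2 0.32). MYB122 was low, at 0.630 FPKM in syd-5 and 0.408 FPKM in WT, and was not called either. MYB34 made up 29.1% of the summed level of MYB34 and MYB51 in syd-5 and 14.4% in WT.

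The indolic enzymes held both the largest fall and the largest rise of all tested members. CYP81F2 (AT5G57220, chromosome 5, 23187840 to 23189857), which hydroxylates indolic glucosinolates during defence, fell 5.15-fold, to 5.77 FPKM in syd-5 against 29.7 FPKM in WT (log2 -2.36). CYP79B3 (AT2G22330, chromosome 2, 9488554 to 9491187) rose 1.70-fold, to 56.6 FPKM in syd-5 against 33.2 FPKM in WT (log2 0.77). Its paralog CYP79B2 (AT4G39950, chromosome 4, 18525246 to 18527579) fell 1.94-fold, to 21.7 FPKM in syd-5 against 42.1 FPKM in WT (log2 -0.96). Both encode the P450 that converts tryptophan to its aldoxime. Their sum was 78.3 FPKM in syd-5 and 75.4 FPKM in WT, and CYP79B2 held 27.8% of it in syd-5 and 55.9% in WT. The difference between the paralogs' changes was itself not tested, and reads of such close relatives, as of MAM1 and MAM3, CYP79F1 and CYP79F2 or the SOT genes, can be split wrongly between them.

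Later indolic steps also went both ways. CYP83B1 (AT4G31500), the P450 that commits the aldoxime to glucosinolates, fell 1.45-fold to 102 FPKM in syd-5 against 149 FPKM in WT (log2 -0.54). SOT16 (AT1G74100, chromosome 1, 27864345 to 27865694), a sulphotransferase that prefers indolic substrates, rose 1.43-fold to 89.0 FPKM in syd-5 against 62.3 FPKM in WT (log2 0.51). SOT16 lies 151 bases from SOT18, which prefers aliphatic substrates and was not called. The abundant tandem transferase genes GSTF9 (939 FPKM in syd-5 and 1186 FPKM in WT) and GSTF10 (596 and 543 FPKM) were not called. Of the 10 indolic regulators and enzymes, 4 fell, 2 rose and 4 were not called, and of the 19 tested aliphatic members 8 fell, 1 rose and 10 were not called.

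**Figure D3:**
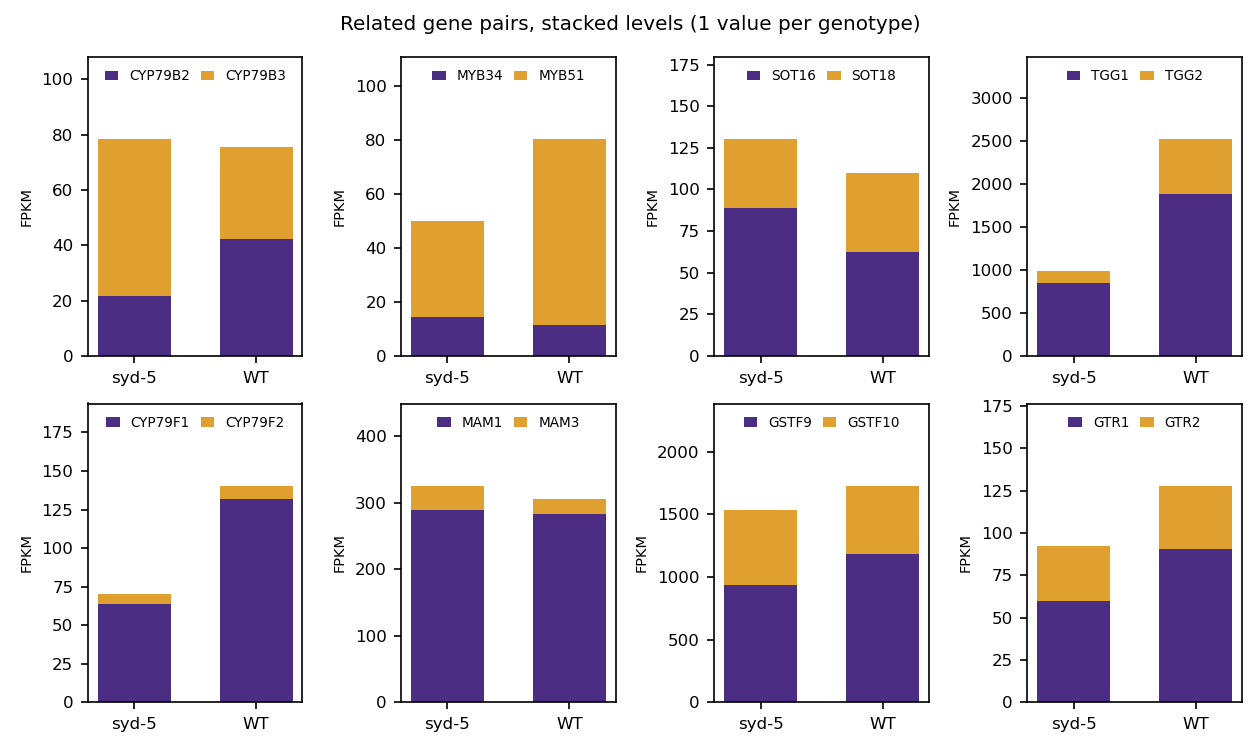
Stacked levels in FPKM (linear axes from 0, 1 value per genotype) of 8 pairs of related genes in syd-5 (left bar) and WT (right bar). The CYP79B2 and CYP79B3 bars reach nearly the same height with a different make-up, while the TGG1 and TGG2 bar is 983 FPKM high in syd-5 and 2516 FPKM in WT.

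The transporter gene GTR1 (AT3G47960) fell 1.52-fold, to 59.8 FPKM in syd-5 against 90.6 FPKM in WT (log2 -0.60). GTR2, which acts with GTR1 in loading glucosinolates into the phloem, had 32.6 FPKM in syd-5 and 37.2 FPKM in WT and was not called. Both spans in the table also cover another gene. For GTR1 this is AT3G47950, at 1.07 FPKM in syd-5 and 0.907 FPKM in WT. For GTR2 it is AT5G62670, which had 40.5 FPKM in syd-5 and 34.0 FPKM in WT, above GTR2 in syd-5 and different from it in direction, and was not called. The sources used here do not say how reads of overlapping genes were divided, so that the value of GTR2 is uncertain.

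**Figure D4:**
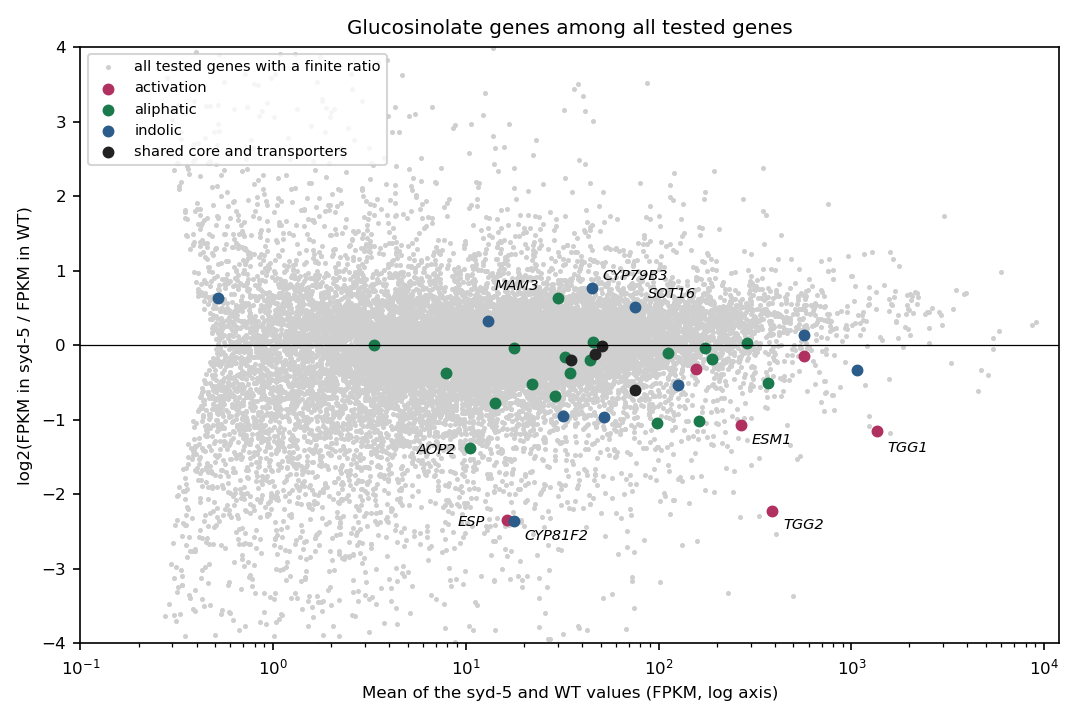
Log2 ratio of syd-5 over WT against the mean level (log axis) for all tested genes with a finite ratio (grey) and the tested members, coloured by arm of the pathway. The 117 tested genes beyond 4 on the log2 scale in either direction are not drawn. TGG1 and TGG2 (log2 -1.15 and -2.22) join high levels with called falls.

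Further genes of the pathway were read in the same way from a list of 41 loci, of which 39 were tested. Of these, 20 fell (51.3%), 3 rose (7.69%) and 16 were not called, where 18.0% of all tested genes fell and 14.1% rose. Of 8 other regulators 5 fell and 1 rose. SDI1, a repressor of glucosinolate synthesis that is switched on by sulphur shortage, fell 8.99-fold to 2.80 FPKM in syd-5 against 25.2 FPKM in WT (log2 -3.17), and its relative SDI2 fell to 31.9 FPKM against 65.2 FPKM. The jasmonate regulator genes MYC2 (46.3 FPKM in syd-5 and 97.5 FPKM in WT) and MYC3 (35.7 and 47.5 FPKM), whose proteins bind the MYB activators, also fell, as did MYC4. OBP2, chosen for naming after its value was seen, was the regulator that rose, to 49.1 FPKM in syd-5 against 38.2 FPKM in WT. The calls of MYC4 and OBP2 were lost when p-values were adjusted over all listed genes (q = 0.0699 and 0.0529 recomputed from the authors' deposited table).

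Of 7 genes of other synthesis steps 2 fell (28.6%, against 18.0% of all tested genes) and none rose. The fallen ones were APK1 (66.6 FPKM in syd-5 and 95.5 FPKM in WT) and APK2 (73.8 and 98.3 FPKM), the kinases that supply activated sulphate to the sulphotransferases. IMD3 (50.8 FPKM in syd-5 and 40.9 FPKM in WT) and IPMI-SSU2 (68.0 and 77.0 FPKM), which act in chain elongation, were not called. Of 6 tested genes of side chain modification 3 fell (50.0%) and 1 rose (16.7%), against 18.0% and 14.1% of all tested genes. The flavin monooxygenase genes FMOGS-OX2 (4.60 FPKM in syd-5 and 17.4 FPKM in WT), FMOGS-OX3 (21.8 and 31.7 FPKM) and FMOGS-OX4 (9.14 and 18.1 FPKM) fell. FMOGS-OX5 (27.9 FPKM in syd-5 and 27.8 FPKM in WT) and GSL-OH (775 and 608 FPKM), which hydroxylates alkenyl side chains and was the most abundant of the 6, were not called. The summed level of this group was 843 FPKM in syd-5 and 703 FPKM in WT. GSL-OH alone gave 775 and 608 FPKM of it, so that the sum mainly follows this gene, which was not called. SCPL17, which encodes an acyltransferase of benzoylated glucosinolates in seeds, rose 18.2-fold but to only 4.34 FPKM in syd-5 against 0.238 FPKM in WT. BZO1, the ligase that acts in the same route, was listed at 0 in both genotypes.

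Of 8 further genes that modify the indole ring 5 fell (62.5%) and 1 rose (12.5%), against 18.0% and 14.1% of all tested genes. CYP81F4 fell to 39.8 FPKM in syd-5 against 71.8 FPKM in WT, and CYP81F1 to 2.98 FPKM against 7.33 FPKM, both with spans that overlap another listed gene. The one at CYP81F1, AT4G37432, was the more abundant of that pair, at 12.1 FPKM in syd-5 and 9.28 FPKM in WT, and was not called. The methyltransferase genes IGMT2 (7.65 FPKM in syd-5 and 14.3 FPKM in WT) and IGMT3 (12.1 and 21.5 FPKM) fell, and IGMT5 fell as well. IGMT1, named after its value was seen, rose to 81.4 FPKM in syd-5 against 54.6 FPKM in WT. IGMT4, the most abundant of these genes, was not called, at 623 FPKM in syd-5 and 486 FPKM in WT. IGMT1 to IGMT4 are near-identical tandem copies, so that their single values are uncertain, and their sum was 724 FPKM in syd-5 and 576 FPKM in WT (log2 0.33), higher in syd-5 while IGMT2 and IGMT3 fell.

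Of 9 other tested genes of hydrolysis 5 fell (55.6%, against 18.0% of all tested genes) and none rose. The nitrile specifier genes NSP5 (98.0 FPKM in syd-5 and 217 FPKM in WT) and NSP1 (102 and 161 FPKM) fell, as did the beta-glucosidase gene BGLU22 (7.16 and 15.8 FPKM) and MVP1 (27.4 and 37.3 FPKM), the neighbour of ESP. TGG5, a root myrosinase gene, fell as well but was low, at 0.218 FPKM in syd-5 and 0.617 FPKM in WT. BGLU21, more abundant than BGLU22 at 16.5 FPKM in syd-5 and 18.6 FPKM in WT, was not called, and neither were NSP3, NSP4 and TGG4. The single further transporter gene, GTR3, was not called, at 10.6 FPKM in syd-5 and 12.8 FPKM in WT. Its span also covers the more abundant AT1G18890, at 15.1 FPKM in both genotypes and not called, so that the value of GTR3 is uncertain too.

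**Figure D5:**
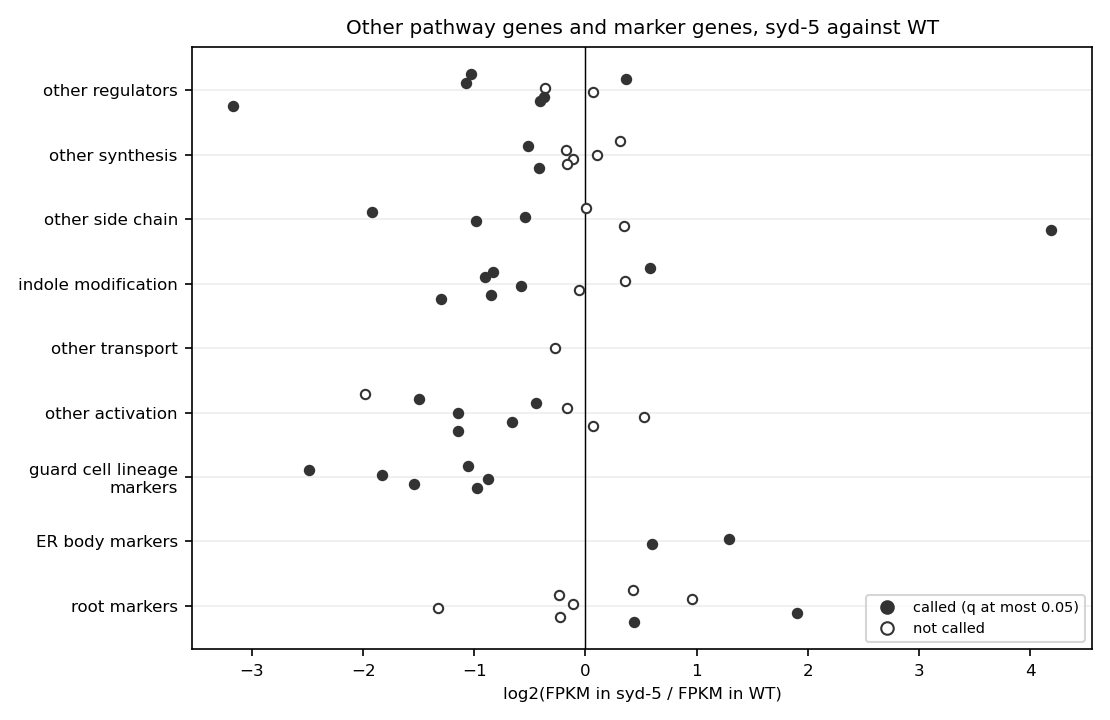
Log2 ratio of syd-5 over WT for the tested genes of the pathway that are not among the 40, by role, and for markers of the guard cell lineage, ER bodies and roots. Filled points rose or fell, open points were not called. All 6 markers of the guard cell lineage lie left of 0 and both ER body markers right of it.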

How the data were processed

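The authors' deposited table compares RNA of syd-5 and WT and holds, for each gene, 1 expression value per genotype with the authors' score, p-value and q-value. The submitters' processing notes name Bowtie2, TopHat2 (version 2.0.4), bedtools and the build TAIR10, but give none of them a role. The program that wrote the table is not named in the labels or header. FPKM was taken as the unit of the authors' deposited values from the layout of the columns, since no header states it. The authors' p-value and q-value were used unaltered. Adjusting the p-values of the 19868 tested genes by Benjamini-Hochberg gave the same q to within 5.22e-07. The smallest p, 5e-05, is shared by 2831 genes, so that the 15 members with q = 0.000351 in the authors' deposited table cannot be ranked by it. The authors' score, a test statistic, was not used.

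With no values per library, the planned tests on libraries could not be run, and the authors' q was taken as given. Each fold change is the log2 ratio of the syd-5 to the WT value, without a pseudocount. Depth and the spread between libraries are unknown. Python (3.11.15) with pandas (2.3.3) was used, and the calling and adjustment steps were tested on simulated data. Coordinates are those of the table, counted from 1, and all 40 loci matched a RefSeq gene table (assembly TAIR10.1), used for names only.

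All 40 members are given. Of the other pathway genes up to 4 per role with the smallest q were to be named, ties going to the larger change, and others were named after their values were seen. The members and lists were chosen with earlier results of these data known. Alternatives covered the q threshold, the adjustment, the scaling, low values, shared spans and tandem copies. No sequences are shown.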

Additional observations from a re-analysis of the deposited data

How the results depend on the processing

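No paired analysis was possible because the table gives no value per library, and leaving out single libraries was not possible for the same reason. The count of 17 members that fell stayed between 13 and 19 under each alternative except that 8 fell by at least 2-fold, where the count of 3 that rose became 0. Leaving out members in tandem with a close copy, chosen after seeing the data, left 1 that rose (CYP79B3) and 13 that fell. The other alternatives for the rises kept a count of 3. The median log2 fold change of the members, -0.32, was -0.30 with the median of all tested genes set to 0, -0.45 with equal sums of both genotypes (which shifts every gene by -0.13), -0.33 for a mean of at least 1 FPKM, -0.34 without shared spans and -0.35 without tandem copies. Under both scalings the authors' q was kept and only a constant, 0.019 or -0.13, was added to every log2 value. The smallest called change of a member was 0.38 in size. The scalings therefore could not turn a called member or alter the counts, and these say nothing about how firm the calls are. Of those not called, MYB76 (-0.13), MAM1 (-0.10) and UGT74C1 (-0.084) changed sign with equal sums, and SUR1 (0.010) with the median set to 0. Of the other pathway genes 6 rose at a q of at most 0.1, and 1 rose and 8 fell by at least 2-fold. The unknown depth and spread limit every single value.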

Other observations

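The aldoxime made by CYP79B2 and CYP79B3 also feeds the antimicrobial compound camalexin and related indolic metabolites. A list of 6 genes of these routes was added after the members' values were known. PAD3, which encodes the last enzyme of camalexin synthesis, fell to 0.714 FPKM in syd-5 against 4.94 FPKM in WT (log2 -2.79), and GSTF6, a glutathione transferase gene of the same route, fell to 38.5 FPKM in syd-5 against 87.9 FPKM in WT (log2 -1.19). CYP71A12 (9.49 FPKM in syd-5 and 7.89 FPKM in WT), CYP71A13 (0.466 and 0.558 FPKM), FOX1 (4.58 and 4.03 FPKM) and CYP82C2 (2.06 and 0.0371 FPKM) were not called.

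The genes listed just before and after each member by position were also read. Some of them overlap the member's listed span, as AT3G47950 does at GTR1 and AT5G62670 at GTR2. Of 23 tested neighbours of members that fell, other than members themselves, 4 fell (17.4%) and 1 rose, where 18.0% of all tested genes fell. Of 22 tested neighbours of members that were not called, 6 fell (27.3%) and 4 rose (18.2%), where 14.1% of all tested genes rose. The members that rose had no tested neighbour other than members. Among the 4 that fell beside fallen members are APK2, beside CYP79B2, and MVP1, beside ESP. Both are on the list of other pathway genes, so that this count is partly drawn from the pathway itself.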
